A study of Mus musculus with 4 samples.

Results

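Cathepsins are the proteases of the lysosome, and lysosome-associated membrane proteins line its membrane. The genes compared were 10 rows of the deposited gene table, chosen by symbol: the cathepsin genes Ctsa, Ctsb, Ctsc, Ctsd, Ctsh, Ctsl, Ctss and Ctsz, with Lamp1 and Lamp2. The table holds 31828 genes. RNA was measured in AML12 (alpha mouse liver 12) cells, a mouse hepatocyte line, in 2 libraries from two-dimensional (2D) dishes and 2 libraries from three-dimensional (3D) cultures embedded in Matrigel, a basement membrane extract. All 4 libraries came from cells held at G1/S by hydroxyurea at 1 mM, which blocks DNA replication, and all cells grew in the same serum-containing medium with insulin, transferrin, selenium and dexamethasone. The drug was left on for 24 h on 2D cells but 36 h on 3D cells, so culture and treatment time cannot be told apart. Nothing in the labels says whether replicates were separate cultures, so the p-values measure the spread between these libraries.

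The lysosome is the acidic compartment in which proteins, lipids and glycans delivered by endocytosis and autophagy are broken down. Most cathepsins are made as inactive precursors, carried from the Golgi by mannose 6-phosphate receptors and activated in acid. Ctsb, Ctsc, Ctsh, Ctsl, Ctss and Ctsz are cysteine proteases of the papain family, Ctsd is an aspartic protease and Ctsa a serine carboxypeptidase. Lamp1 and Lamp2 are heavily glycosylated proteins that shield the lysosomal membrane. Hepatocytes are rich in lysosomes and turn over much of their protein by autophagy. Many lysosomal genes carry CLEAR elements, sites built around the letters CACGTG to which TFEB and its relatives are known to bind.

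Promoter letters are shown for the members that hold this core, and a link between it and their changes was not tested. Sequences are from RefSeq on GRCm38.p6, from 250 bases before to 50 bases after each start. Of the 10 genes, 8 had an entry, Ctsb and Ctsh being the others. CACGTG, which reads the same on both strands, was found in 4 of these 8 genes, namely Ctsa, Ctsd, Lamp1 and Ctsl. It was present in 8.09% of the 27025 genes with a promoter entry, in 11.6% of the 9844 such genes that were tested, and in 7.15% of all 32851 promoters. The stretches below lie before the start, read 5′ to 3′ on the gene's strand, and have CACGTG in capitals.
Lamp1, chr8:13159080-13159160, plus strand, 4 copies: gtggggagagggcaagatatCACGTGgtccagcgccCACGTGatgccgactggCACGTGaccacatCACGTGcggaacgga
Ctsd, chr7:142387908-142387937, minus strand: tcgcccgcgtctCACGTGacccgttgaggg
Ctsd, chr7:142388047-142388077, minus strand: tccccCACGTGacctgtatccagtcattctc
Ctsa, chr2:164833749-164833772, plus strand: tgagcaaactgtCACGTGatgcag
Ctsl, chr13:64370739-64370768, minus strand: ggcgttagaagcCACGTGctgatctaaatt

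The 4 copies in Lamp1 lie within 61 bases of the start. The first Ctsd stretch shown and those of Ctsa and Ctsl overlap an exon and untranslated region annotated in GENCODE M21. The Ctsa stretch belongs to the second of its 2 RefSeq starts, where a further copy lies just after the start, and its first start has none. The full CLEAR form, the core with GT before it and AC after it, was in 0 of the 8 genes. It was in 0.37% of the 27025 genes with a promoter entry and in 0.326% of all promoters, so 0 of 8 says little. No CACGTG was present in the windows of Ctsc, Ctss, Ctsz and Lamp2. These matches describe letters and not binding.

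The level of each gene was given by the authors as TPM, a measure of transcript abundance corrected for transcript length and scaled to the same total in every library. The sequencing depth behind each value is therefore unknown. Between 13891 and 14256 genes reached 1 TPM per library, and across genes the Pearson correlation of log2(TPM + 1) was 0.991 and 0.992 between replicates and 0.951 to 0.952 between cultures. The cultures were compared with limma on log2(TPM + 1) over the 14116 genes with a mean of at least 1 TPM, with Benjamini-Hochberg adjustment over all of them. Of these genes, 3303 (23.4%) were higher and 3819 (27.1%) lower in the 3D-cultured cells at an adjusted p-value under 0.05, and the median log2 fold change was -0.04. Without 3D replicate 1 the count in both directions was 4720, against 7122. A 3D culture that held fewer cells of a type and one with less RNA per cell could not be told apart.

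All 9 members that passed the filter of 1 TPM rose in the 3D-cultured cells, with log2 fold changes of 0.29 to 1.44 and adjusted p-values of 0.000241 to 0.0175. For each of the 9, both 3D libraries lay above both 2D libraries, a separation found for 35.9% of all genes tested. The median log2 fold change of the 9 was 0.83. Ctss did not pass the filter and was not tested. The 10 genes together took 0.384% and 0.383% of all TPM in 2D and 0.635% and 0.626% in 3D.

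**Figure D1:**
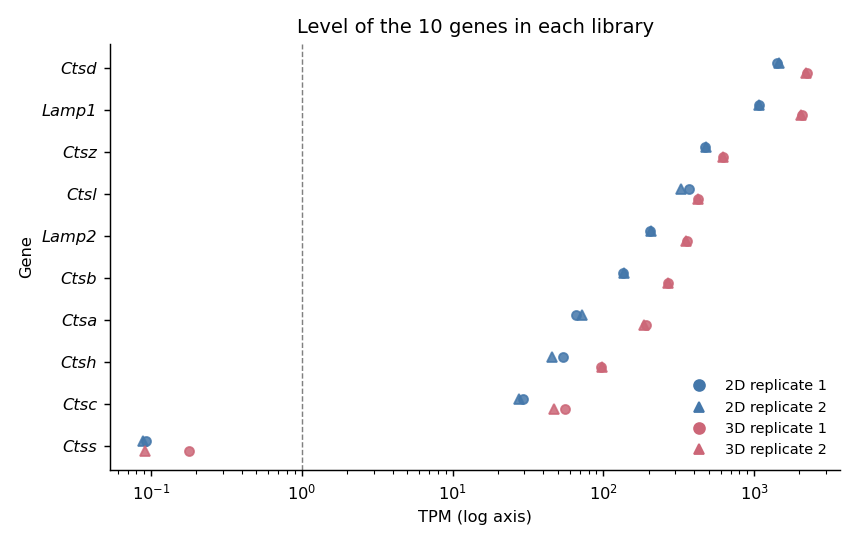
Level of each of the 10 genes in TPM, on a log axis, with 1 point per library (circles replicate 1, triangles replicate 2, blue 2D, red 3D) and a dashed line at 1 TPM. The levels run from about 0.1 TPM for Ctss to 2252 TPM for Ctsd, and every gene but Ctss has its red points to the right of its blue ones.

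The members spanned a wide range of levels on the TPM scale and kept their order. Ctsd was highest, followed by Lamp1, Ctsz, Ctsl, Lamp2, Ctsb, Ctsa, Ctsh, Ctsc and Ctss, and this order was the same in all 4 libraries. No neighbours in the order overlapped within either culture. Ctsd ranked 42nd and Lamp1 51st by mean level among the 14116 genes tested, while Ctsc ranked 4875th.

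Ctsd, the aspartic endopeptidase that begins much of the proteolysis in lysosomes, is on the minus strand of chromosome 7 at 142375911 to 142388038 (GRCm38, ENSMUSG00000007891). Its level was 1422 and 1458 TPM in 2D and 2252 and 2223 TPM in 3D. The 2D libraries differed by 0.0363 on the log2 scale, far less than the cultures, whose log2 fold change was 0.64 (SE 0.03, adjusted p 0.000447). Gm49369 overlaps Ctsd by 6757 bases on the same strand, so the split of reads between them is uncertain. That gene was listed at 22.2 and 44.4 TPM in 2D and 23.0 and 21.0 TPM in 3D, and with the pair summed the log2 fold change of Ctsd was 0.62.

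Ctsa, which trims amino acids from the carboxyl end of peptides and stabilises the sialidase Neu1 and the galactosidase Glb1 in a complex, changed most among the members. It lies on chromosome 2 at 164832873 to 164841032 (plus strand, ENSMUSG00000017760). Its level was 65.7 and 71.8 TPM in 2D and 190.5 and 185.6 TPM in 3D. The 3D libraries were well above the 2D ones, and the means, 68.7 ± 4.29 and 188 ± 3.51 TPM (SD, n = 2 each), stood 2.74-fold apart. The log2 fold change was 1.44 (SE 0.06, adjusted p 0.000317), and 2.03% of the genes tested had a higher one. It was the 1 member whose mean TPM rose more than 2-fold.

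The partners of Ctsa in that complex were read beside it. Neu1, from the list of other hydrolases, was at 83.3 and 82.3 TPM in 2D and 161 and 165 TPM in 3D, a log2 fold change of 0.97 (adjusted p 0.000324). Glb1 did not pass the threshold, at 19.9 and 19.6 TPM in 2D and 19.96 and 18.8 TPM in 3D (adjusted p 0.774). Both were chosen for their known complex with Ctsa after their values were seen. The ratio of Ctsa to Glb1 TPM was 3.30 and 3.67 in 2D and 9.55 and 9.85 in 3D, and that of Ctsa to Neu1 was 0.788 and 0.872 in 2D and 1.18 and 1.13 in 3D. Ratios are given as descriptions and were not tested.

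Ctsb and Ctsl are the main cysteine endopeptidases of most tissues, Ctsb acting also as a dipeptidyl carboxypeptidase. Ctsb (chromosome 14, 63122462 to 63145923, plus strand, ENSMUSG00000021939) was at 136 and 138 TPM in 2D and at 267 and 269.6 TPM in 3D. Its replicates differed little and its level nearly doubled, with a log2 fold change of 0.97 (SE 0.04, adjusted p 0.000282). Ctsl (chromosome 13, 64359337 to 64370890, minus strand, ENSMUSG00000021477) was at 367 and 329 TPM in 2D and at 427 and 424 TPM in 3D. It had the smallest change of the 9, and the gap between its 2D libraries was 0.16 on the log2 scale, against a log2 fold change of 0.29 (SE 0.06, adjusted p 0.0175). Without either 3D library Ctsl no longer passed the threshold (adjusted p 0.0848 without 3D replicate 1 and 0.0780 without 3D replicate 2), though its log2 fold change stayed at 0.29 and 0.30. The ratio of Ctsb to Ctsl TPM was 0.370 and 0.419 in 2D and 0.626 and 0.636 in 3D, so the cultures did not overlap in it.

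The exopeptidases of the family, which remove residues from the ends of peptides, also rose. Ctsh, mainly an aminopeptidase, is on chromosome 9 at 90054152 to 90076089 (plus strand, ENSMUSG00000032359). It was at 53.9 and 45.4 TPM in 2D and at 97.1 and 98.4 TPM in 3D. Its 2D libraries differed by 0.25 on the log2 scale, the widest gap between replicates among the 9, and its log2 fold change was 0.97 (SE 0.09, adjusted p 0.00174). Ctsc, a dipeptidyl peptidase known for activating the granule proteases of immune cells, is on chromosome 7 at 88278085 to 88310888 (plus strand, ENSMUSG00000030560). It was at 29.2 and 27.4 TPM in 2D and at 55.5 and 47.1 TPM in 3D, with a log2 fold change of 0.83 (SE 0.10, adjusted p 0.00302). Here the 3D libraries were the ones that differed more, by 0.24 on the log2 scale. Ctsz, a carboxypeptidase, is on chromosome 2 at 174427493 to 174439039 (minus strand, ENSMUSG00000016256) and rose from 473 and 479 TPM to 625 and 625 TPM. This smaller change of 0.39 (SE 0.03, adjusted p 0.00121) had tight replicates in each culture.

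Ctss, the cathepsin that antigen-presenting cells use to cut the invariant chain Cd74, was near 0 in every library. It lies on chromosome 3 at 95526786 to 95556403 (plus strand, ENSMUSG00000038642) and was at 0.0930 and 0.0884 TPM in 2D and 0.179 and 0.0918 TPM in 3D. The cultures overlapped closely, and the second 3D library lay between the 2D libraries. With no filter on low values its log2 fold change was 0.0570 with a 95% interval of -0.15 to 0.26 (adjusted p 0.648). On the log2(TPM + 1) scale a gene this low cannot show a large change, and a difference was not detectable here. Cd74 itself rose from 1.59 and 1.12 TPM to 13.7 and 13.0 TPM (log2 fold change 2.61, adjusted p 0.000463). Of the other 6 genes listed for class II presentation, 2 passed the filter. Those below it, and named for that reason, were H2-Aa, H2-Ab1, H2-Eb1 and Ciita. The highest value among them was 0.879 TPM, for H2-Ab1 in the second 3D library. H2-DMb1 rose by 0.82 on the log2 scale (adjusted p 0.00981), and H2-DMa was at 22.9 and 28.4 TPM in 2D and 24.96 and 28.5 TPM in 3D (adjusted p 0.709).

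**Figure D2:**
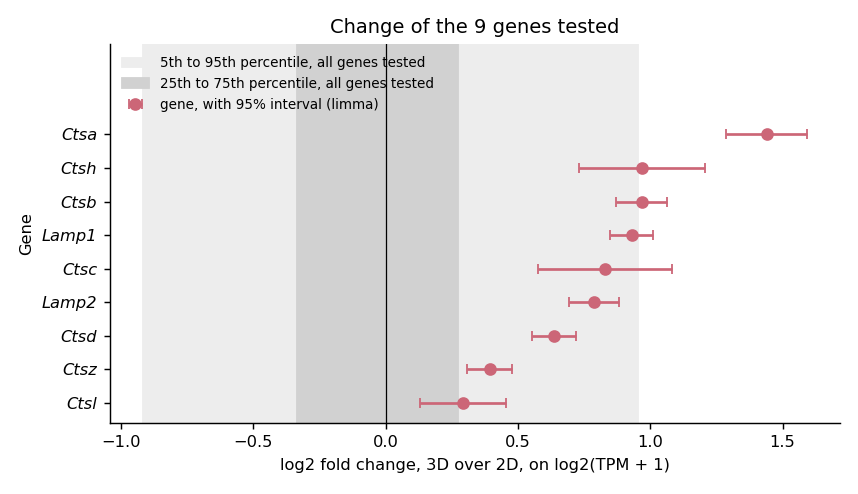
Log2 fold change of 3D over 2D for the 9 genes tested, with 95% intervals from limma, over the middle 50% (dark grey) and 90% (light grey) of all genes tested. Every interval lies above 0, that of Ctsa lies beyond the light band, and that of Ctsl overlaps the dark band.

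Lamp1 and Lamp2, which together make up much of the protein of the lysosomal membrane, both rose. Lamp1 (chromosome 8, 13159161 to 13175338, plus strand, ENSMUSG00000031447) was at 1086 and 1076 TPM in 2D and at 2080 and 2039 TPM in 3D. Its log2 fold change was 0.93 (SE 0.03, adjusted p 0.000241), with a 95% interval of 0.85 to 1.01. Lamp2, which also serves as a receptor in chaperone-mediated autophagy through 1 of its splice forms, is on chromosome X at 38401357 to 38456454 (minus strand, ENSMUSG00000016534). It was at 205 and 207 TPM in 2D and at 360 and 352 TPM in 3D, a log2 fold change of 0.79 (SE 0.04, adjusted p 0.000385) with an interval of 0.69 to 0.88. Replicates of both genes lay close together in both cultures. The ratio of Lamp1 to Lamp2 TPM was 5.30 and 5.20 in 2D and 5.78 and 5.79 in 3D. Gene totals do not separate the splice forms of Lamp2.

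Summed over the 8 cathepsins, the level was 2546 and 2548 TPM in 2D and 3914 and 3873 TPM in 3D. Ctsd held 56.5% ± 0.978 of that sum in 2D and 57.5% ± 0.0940 in 3D (SD, n = 2 each), so its share differed by less than the spread between the 2D libraries. Ctsl went from 13.7% ± 1.08 to 10.9% ± 0.0221 and Ctsz from 18.7% ± 0.162 to 16.1% ± 0.134. The share of Ctsa was 2.70% ± 0.167 in 2D and 4.83% ± 0.0539 in 3D, and that of Ctsb 5.37% ± 0.0559 and 6.90% ± 0.0923. Shares are tied to each other, since a larger one lowers the rest.

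**Figure D3:**
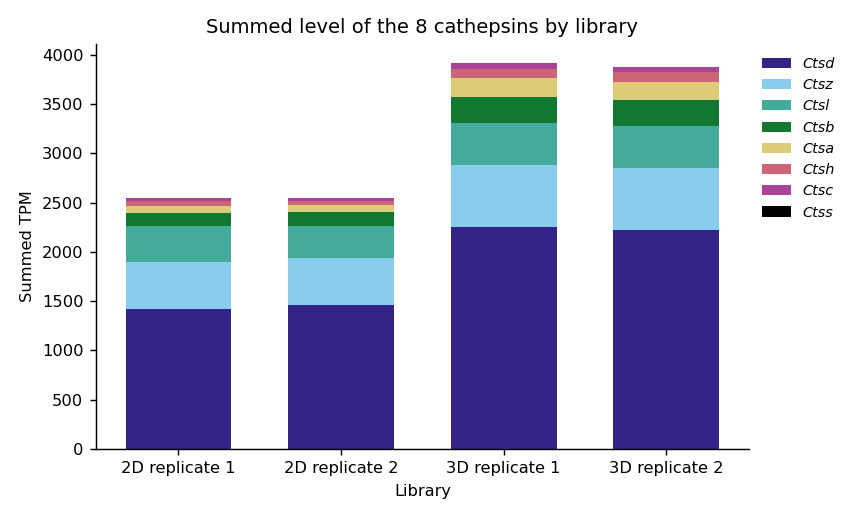
Summed TPM of the 8 cathepsins in each library, with 1 coloured segment per gene. The bars reach 2546 and 2548 TPM in 2D and 3914 and 3873 TPM in 3D, and Ctsd fills more than any other segment in all 4 libraries.

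Cystatins, the natural inhibitors of cysteine cathepsins, moved in both directions. Cst3 (cystatin C, a secreted inhibitor) fell from 263 and 248 TPM to 204 and 204 TPM, a log2 fold change of -0.32 (adjusted p 0.00518). Cstb (stefin B, an intracellular inhibitor) rose from 1370 and 1265 TPM to 1543 and 1534 TPM, a log2 fold change of 0.22 (adjusted p 0.0173). Of the 14 cystatins and stefins listed, 3 were tested, and the remaining one, Cst8, fell by 1.62 on the log2 scale from a level of 2.05 and 2.57 TPM (adjusted p 0.00222). The TPM of the 6 cysteine cathepsins over that of Cst3 and Cstb was 0.649 and 0.673 in 2D and 0.842 and 0.843 in 3D, without overlap between the cultures. Single pairs differed in how far apart the cultures lay. The ratio of Ctsb to Cst3 was 0.517 and 0.557 in 2D and 1.31 and 1.32 in 3D. For Ctsl to Cstb the ratio was 0.268 and 0.260 in 2D and 0.277 and 0.276 in 3D.

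Further cathepsins that are not members were low. Of 15 listed, 8 were in the table and 4 were tested, 2 of which rose and 2 fell. Ctse, an aspartic protease of endosomes, rose from 1.86 and 1.65 TPM to 12.2 and 12.2 TPM, a log2 fold change of 2.26 (adjusted p 0.000330). Ctso rose from 3.94 and 4.64 TPM to 7.35 and 6.15 TPM (adjusted p 0.0241), whereas Ctsf fell from 4.54 and 3.33 TPM to 1.06 and 1.13 TPM (adjusted p 0.00434). The other that fell, Ctsw, was at 2.68 and 2.79 TPM in 2D and 0.0985 and 0.199 TPM in 3D (adjusted p 0.00112), and it was named because of this count.

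Most other parts of the lysosome were described from 9 lists on the lysosome and autophagy that leave out the members. These lists were chosen with earlier results of these data known. Of 144 listed genes tested, 80 were higher and 22 lower in 3D, with a median log2 fold change of 0.36, against 23.4% higher and 27.1% lower over all genes. Among 7 other lysosomal proteases 5 rose and 1 fell, with a median of 0.71. Dpp7, a dipeptidyl peptidase, rose from 79.2 and 81.6 TPM to 264 and 236 TPM (log2 fold change 1.62, adjusted p 0.000317). Scpep1, a serine carboxypeptidase, rose by 0.80 on the log2 scale (adjusted p 0.000380). Prcp, which removes residues after proline, fell from 42.1 and 42.9 TPM to 17.8 and 15.9 TPM (log2 fold change -1.29, adjusted p 0.000574). Lgmn, the asparagine endopeptidase that helps to process cathepsins, did not pass the threshold, at 142 and 141 TPM in 2D and 149 and 151 TPM in 3D (adjusted p 0.134).

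Beside Lamp1 and Lamp2, 13 of 25 other lysosomal membrane proteins rose and 3 fell, with a median log2 fold change of 0.31. Shares over all genes tested were 23.4% higher and 27.1% lower. The 3 that fell, named because of this count, were Scarb2, Sidt2 and Slc38a9. Their log2 fold changes were -0.64, -0.63 and -0.51 (adjusted p 0.00118, 0.00521 and 0.0345). Ostm1, the partner of the chloride transporter Clcn7, rose from 77.1 and 77.2 TPM to 213 and 211 TPM (log2 fold change 1.44, adjusted p 0.000202), and Clcn7 rose by 1.05 (adjusted p 0.00123). Cd63, a tetraspanin of late endosomes, rose by 0.73 (adjusted p 0.000486). Of 36 other hydrolases and their cofactors, 22 rose and 5 fell, with a median of 0.39. Hexa, a subunit of hexosaminidase, rose from 102 and 102 TPM to 302 and 308 TPM (log2 fold change 1.57, adjusted p 0.000192) and Gaa, the acid glucosidase that degrades glycogen, by 1.20 (adjusted p 0.000276). Hyal1, a hyaluronidase, fell from 182 and 219 TPM to 96.2 and 94.8 TPM (adjusted p 0.00164).

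The vacuolar ATPase pumps the protons that keep cathepsins in acid. Of its 20 subunits and accessory proteins tested, 14 rose and 2 fell, with a median log2 fold change of 0.44. Shares over all genes were 23.4% higher and 27.1% lower. The 2 that fell, named because of this count, were Tcirg1 and Atp6v0a4. Their log2 fold changes were -0.37 and -0.76 (adjusted p 0.00356 and 0.00531). Atp6v0b, of the membrane sector, rose from 419 and 370 TPM to 883 and 874 TPM (log2 fold change 1.16, adjusted p 0.000574). Of 14 sorting genes 9 rose and 1 fell, with a median of 0.38. Gnptg, a subunit of the enzyme that starts the mannose 6-phosphate tag on cathepsins, rose from 104 and 99.6 TPM to 212 and 209 TPM (adjusted p 0.000317). The 1 that fell was M6pr, a mannose 6-phosphate receptor, from 139 and 130 TPM to 120 and 117 TPM (adjusted p 0.0361). It was named because of this count. Of 18 autophagy genes 5 were higher and 4 lower, with a median of 0.06. These shares were near the 23.4% higher and 27.1% lower found over all genes tested. Gabarap, which is attached to the autophagosome membrane, rose by 0.66 (adjusted p 0.000500), and the cargo receptor Sqstm1 fell by 0.25 (adjusted p 0.00361).

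**Figure D4:**
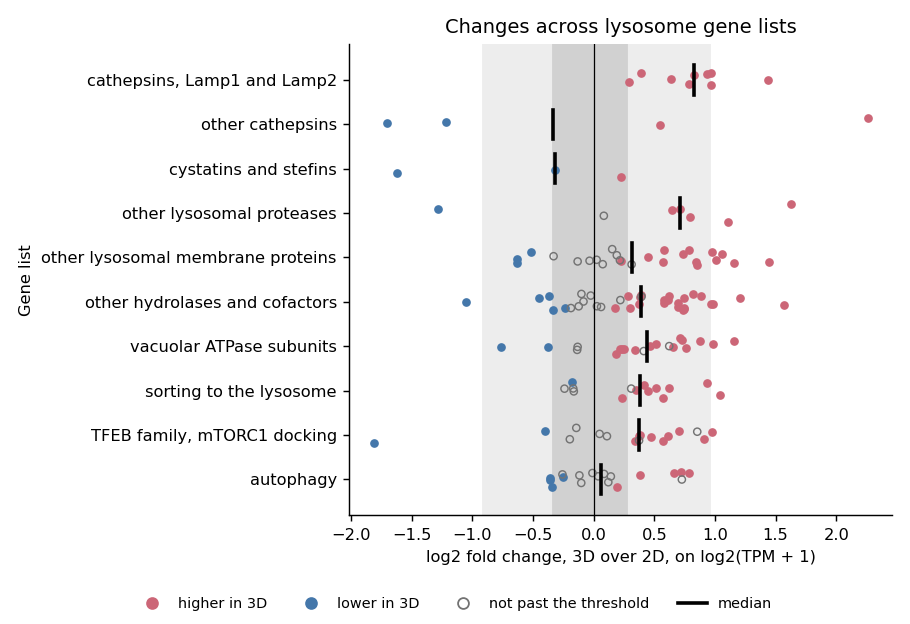
Log2 fold change of 3D over 2D for each tested gene (1 point each) of the cathepsin and Lamp genes and of 9 further lysosome and autophagy lists, with list medians as black bars, over the middle 50% (dark grey) and 90% (light grey) of all genes tested. Medians run from -0.34 for the 4 other cathepsins to 0.83 for the 9 members tested, and open points did not pass the threshold.

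The TFEB family regulates lysosomal genes, and its members can be held inactive by mTORC1 at the lysosome surface. Of 17 genes tested for this family and for mTORC1 docking, 9 rose and 2 fell, with a median log2 fold change of 0.37. Among all genes tested, 23.4% were higher and 27.1% lower. Tfe3 rose from 28.1 and 29.3 TPM to 60.4 and 49.9 TPM (log2 fold change 0.91, adjusted p 0.00286), while Mitf fell from 25.7 and 30.0 TPM to 6.58 and 7.89 TPM (log2 fold change -1.81, adjusted p 0.000792). Tfeb, named after its values were seen, was lower than either in 2D, at 4.31 and 5.00 TPM, and rose to 7.35 and 7.94 TPM (adjusted p 0.00985). Of the 115 tested list genes with a RefSeq promoter, 30 had CACGTG, and 24 of these rose with a median log2 fold change of 0.58. Of the 85 without it 39 rose, with a median of 0.22. Over the 9844 tested genes with a promoter entry, 34.7% of those with CACGTG rose and 23.6% of those without it. Among the members, those with CACGTG changed by 1.44 (Ctsa), 0.93 (Lamp1), 0.64 (Ctsd) and 0.29 (Ctsl) on the log2 scale. Tested members whose windows lack it changed by 0.83 (Ctsc), 0.79 (Lamp2) and 0.39 (Ctsz), so the ranges overlapped. These splits were not tested.

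The places of the members in the genome were read because the study compared genome structure. The 9 tested members lie on 7 chromosomes. Of the 18 nearest tested genes that flank them without overlap, 7 were higher and 3 lower in 3D, with a median log2 fold change of 0.16. Over all genes tested, 23.4% were higher and 27.1% lower, with a median of -0.04. Whether flanking genes moved with the members was not tested. At Ctsd the flanking gene Ifitm10 rose by 1.60 (adjusted p 0.000543) and Syt8 fell by 0.88 (adjusted p 0.00548), while neither of the genes that flank Lamp1 without overlap passed the threshold (adjusted p 0.0773 for Cul4a and 0.854 for Dcun1d2). On the opposite strand, Neurl2 overlaps Ctsa by 584 bases and rose by 1.16 (adjusted p 0.00202), and Fdft1 overlaps Ctsb by 774 bases and rose by 0.89 (adjusted p 0.0103). Grtp1 overlaps Lamp1 by 3317 bases and rose by 0.51 (adjusted p 0.0358), while Nelfcd overlaps Ctsz by 10 bases and did not pass the threshold, with a log2 fold change of -0.17 (adjusted p 0.0659). Pltp, which also overlaps Ctsa, did not pass the filter. Flanking genes were named after their values were seen, and overlapping ones by position. Alignment was run in the stranded mode.

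Markers of other cells were read beside these results, since several cathepsins are abundant in macrophages. Of 12 macrophage markers 10 had a mean under 1 TPM, among them the defining Ptprc, at most 0.296 TPM, and Adgre1, at 0 in 3 libraries and 0.0575 TPM in the other. Cd14, which hepatocytes can also express, was at 113 and 114 TPM in 2D and 271 and 271 TPM in 3D (adjusted p 0.000215). The other 11 markers summed to 2.78 and 3.30 TPM in 2D and 3.70 and 3.91 TPM in 3D. All 6 endothelial markers stayed at or under 0.660 TPM. Of 5 stellate cell and fibroblast markers in the table only Des passed the filter, and it fell by 0.91 on the log2 scale (adjusted p 0.00122). Of 4 tested cholangiocyte markers 2 rose and 2 fell. Spp1 rose from 166 and 138 TPM to 764 and 786 TPM (log2 fold change 2.35, adjusted p 0.000317) and Sox9 by 0.62 (adjusted p 0.00317). Krt19 and Krt7 fell by 0.49 and 0.65 (adjusted p 0.00138 and 0.000578). Of 10 hepatocyte markers 6 rose and 2 fell, and the remaining 2, Serpina1a and Fgb, were at 0 in both 2D libraries and at most 0.0768 TPM in 3D. Alb, the marker that defines mature hepatocytes, was at 0.819 and 1.20 TPM in 2D and 12.7 and 10.0 TPM in 3D, and Trf and Ttr also rose, by 3.54 and 4.24 on the log2 scale (adjusted p 9.63e-05 and 0.000211). The keratins Krt8 and Krt18 were the hepatocyte markers that fell, by 0.82 and 0.91 (adjusted p 0.000287 and 0.000241). Ptprc, Adgre1, Serpina1a and Fgb were named after their values were seen, as defining markers near 0. The part of these shifts in the cathepsin results was not tested.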

How the data were processed

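Per the labels and the study's methods, stranded mRNA libraries were trimmed with cutadapt 1.8.3 and Trimmomatic 0.36, aligned to GRCm38 with HISAT2 2.0.5 and quantified with StringTie 1.3.4 on Ensembl genes. The TPM values of each library were deposited by the authors. The log2 fold changes and p-values of the authors' own DESeq2 comparison are also in the deposited table and were not used.

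The labels gave the culture of each library. TPM values are relative within a library and keep no depth, so no interval that needs reads was computed, and read-count tests could not be run. Genes with a mean of at least 1 TPM were tested on log2(TPM + 1), which understates changes of low genes, with limma 3.58.1 in R 4.3.3 (trend and robust variance, culture as the only factor, two-sided, Benjamini-Hochberg adjustment, threshold 0.05). In simulated data with 200 of 14116 genes changed, the fit recovered 88% of 4-fold and 64% of 2-fold changes. Of its 156 calls, 2.56% were false. The simulation changed far fewer genes than the 7122 called in these data. RefSeq promoters were searched with Python 3.11.15, and figures drawn with matplotlib 3.10.9.

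The members and lists were chosen with earlier results of these data known. Genes named were all members and, of each list, up to 3 with the highest mean TPM and up to 3 with the largest change past the threshold at 10 TPM or more, and others are marked.

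Results were recomputed with pseudocounts of 0.1 or 5, without the filter or with a filter of 5 TPM, with values median-centred, quantile-normalized or rescaled after removal of mitochondrial genes and the 20 most abundant genes, with a replicate block, with a constant prior variance, with each library left out and, chosen after seeing the data, Ctsd summed with Gm49369. Ratios, shares and promoter matches are descriptions.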

Additional observations from a re-analysis of the deposited data

How the results depend on the processing

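All 9 tested members stayed higher in 3D under every alternative, and the count past the threshold was 9 in each but 2: without 3D replicate 1 and without 3D replicate 2 it was 8, Ctsl being the gene lost. Across the 4 fits that each left out a library it ranged from 8 to 9. In these fits the culture left with 1 library was assumed to vary like the other. Of 118 values of single members under the alternatives, 116 kept their direction and their side of the threshold, and the other 2 were those of Ctsl. The log2 fold change of Ctsl ranged from 0.21 to 0.37 without 1 library and that of Ctsa from 1.38 to 1.503. For the lysosome lists 77 to 97 genes passed the threshold without 1 library, against 102 of 144. Over all genes the count was 4720 to 5954, against 7122, and the lowest value came without 3D replicate 1. The same-numbered libraries did not deviate together (correlation -0.0549 over 14116 genes) and were not treated as pairs. With the replicate block 9 members, 97 list genes and 6248 genes in all passed. Centring on the median and quantile normalization gave 9 members each. Count-based tests were not run on TPM.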
